A study of Mus musculus with 18 samples.

Results

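Pdgfa encodes the A chain of platelet-derived growth factor and Pdgfra encodes the alpha receptor that binds it. The rows of these 2 genes, of 22997 nuclear genes counted, were read in every library of single cells from gastrulating mouse embryos. They were followed by embryonic stage and by which of the transcription factor genes Sox2, Mesp1 and Foxa2 a cell's transcripts included. The pair was chosen with earlier results of these data known, as genes of complementary cells, so their levels by stage and by these 3 genes, and their joint detection, are given as a description without a test. The data bore that description out in part: at E7.5 the highest Pdgfra levels were in cells with little Pdgfa, while at E6.75 the cells richest in Pdgfra were also rich in Pdgfa.

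All embryos were C57BL/6 wild type and untreated, per the labels, and no group carried an engineered allele. The groups were embryonic day (E) 6.75, with 6 libraries of hand-picked cells processed by CEL-Seq2, and E7.5, with 12 libraries of cells sorted by flow cytometry and processed by mCEL-Seq2, a miniaturised version run on a robot. Both methods mark the 3′ end of a polyadenylated RNA with a tag for its cell and a random tag for the molecule (a UMI), so amplified copies count once. E6.75 embryos had the extraembryonic part removed and were dissociated singly, whereas E7.5 embryos were cut below the chorion, which kept the extraembryonic mesoderm in the sample, and 1 or 2 litters went into each pool. Stage, collection and protocol therefore changed together and their parts cannot be told apart. A cell's embryo of origin is not given in the labels, so the library served as the replicate and p-values measure the spread between libraries.

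Cells with at least 2000 nuclear transcripts were kept, which gave 543 cells at E6.75 (85 to 96 per library, 6 libraries) and 429 at E7.5 (15 to 71 per library, 11 libraries). E7.5 replicate 5 had 0 such cells and was not used. Kept cells summed to 2918240 to 5486857 transcripts per E6.75 library and 488326 to 2615333 per E7.5 library, and the median cell held 39348 and 31203 transcripts. Of 153 pairs of libraries, 56 shared all 96 barcodes and 32 shared 48, and 0 of the 972 kept cells had counts identical to another's. Levels are CPM, a gene's transcripts in the summed cells of a library scaled to a total of 1000000 nuclear transcripts. Although the extraembryonic part had been removed at E6.75, clustering found 41 cells like visceral endoderm and 14 like extraembryonic ectoderm there.

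The PDGF ligands are secreted dimers and their receptors are tyrosine kinases of the same class as Kit. Signalling through the alpha receptor recruits PI3 kinase, phospholipase C gamma and SHP2 (Ptpn11) and feeds the Ras and MAP kinase pathway. In the mouse embryo Pdgfra is a known marker of early mesoderm and of primitive endoderm, Pdgfa is known from the epiblast and other epithelia, and embryos without the receptor have defects in mesoderm derivatives. Sox2 marks epiblast and neural ectoderm, Mesp1 nascent mesoderm, and Foxa2 the anterior streak, definitive endoderm, node and visceral endoderm.

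In the GENCODE vM21 annotation of GRCm38, Pdgfra occupies chr5:75152292-75198215 on the plus strand (45924 bp, 9 transcripts of which 7 are protein-coding). Pdgfa occupies chr5:138976014-138997370 on the minus strand (21357 bp, 7 transcripts of which 4 are protein-coding). The related receptor genes Kit and Kdr begin 376.7 and 734.6 kb beyond the end of Pdgfra on the same chromosome. An antisense gene, 6330403L08Rik, overlaps Pdgfa and held 31 transcripts in all kept cells, and Gm42802, Gm42803 and Mir7025, which overlap Pdgfra, were not analysed here. Whether the counting used strand is not given in the sources used here, so reads within the shared stretch cannot be assigned to either gene. That stretch is at the 5′ end of Pdgfa. The annotated 3′ ends, which both methods mark, are at 138976014 for Pdgfa and 139000577 for the antisense gene. Each lies outside the other gene.

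The stretch just upstream of each gene's start is shown because the classes of cells compared below are marked by T-box and E-box binding factors (T, Eomes and Mesp1, Snai1). Both come from RefSeq on GRCm38.p6 and are written 5′ to 3′ on the gene's own strand, with motif matches in capitals. For Pdgfra the window is chr5:75152001-75152250, the 250 bases before the RefSeq start. For Pdgfa it is chr5:138995038-138995194, 157 bases ending 94 bases before the RefSeq start at 138994944, trimmed so that no annotated exon of Pdgfa is included. The bases between this window and that start were therefore not searched, for the TATA box or any other motif. Another RefSeq start of Pdgfa, at 138994281, left a window of 47 bases, which is not shown. The Pdgfa window lies inside the gene body of longer GENCODE transcripts and overlaps the antisense gene, which starts at 138995056.
Pdgfra: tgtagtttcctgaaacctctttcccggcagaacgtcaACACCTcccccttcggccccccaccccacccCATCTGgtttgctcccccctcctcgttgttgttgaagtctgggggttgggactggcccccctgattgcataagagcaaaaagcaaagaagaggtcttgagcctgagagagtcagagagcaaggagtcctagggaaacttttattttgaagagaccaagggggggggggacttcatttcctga
Pdgfa: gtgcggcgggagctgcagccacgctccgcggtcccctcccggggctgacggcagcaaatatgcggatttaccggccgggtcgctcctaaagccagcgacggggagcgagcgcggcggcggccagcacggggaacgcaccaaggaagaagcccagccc
Both strands were searched for the T-box core AGGTGT, which factors such as T bind, and for the E-box CANNTG, which basic helix-loop-helix and Snail factors bind. They were also searched for the GC box GGGCGG of general factors, the GATA factor site AGATAA and the TATA box TATAAA. The Pdgfra window held 1 T-box core, read on the opposite strand, and 1 E-box, and no match for the other 3. Of 32851 promoter windows of that length, 11.83% held a T-box core and 66.22% an E-box. The Pdgfa window held no match for any of the 5 motifs, which were present in 7.936%, 50.81%, 17.64%, 6.831% and 7.549% of windows of its length, in the order named. Its GC content was 71.97% with 20 CpG dinucleotides, against 54.4% and 4 for Pdgfra, and the medians of all windows of those lengths were 50.96% and 52.4%. A match in these windows is a description of the letters and not a measured binding site.

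Pdgfa was present at both stages and stood higher at E7.5. It lay between 16.9 and 37.9 CPM in the 6 E6.75 libraries (median 24.9) and between 39.5 and 104 CPM in the 11 E7.5 libraries (median 53.1). The means were 26.2 ± 7.98 CPM (SD, n = 6) and 58.6 ± 21.7 CPM (SD, n = 11), and the libraries of the stages did not overlap. Libraries did not overlap for 8.22% of the 9996 genes tested between stages, and 38.8% of those genes passed the test, so a stage difference of this kind was common. A Pdgfa transcript was found in 193 of 543 cells at E6.75 (35.5%) and in 224 of 429 at E7.5 (52.2%). After each cell was thinned to 2000 transcripts, the mean shares over libraries were 5.14% and 9.49%.

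Pdgfra was nearly absent from most E6.75 libraries and abundant in every E7.5 library. At E6.75, 4 libraries held 0.685 to 1.65 CPM, replicate 2_14 held 17.3 CPM and replicate 2_13 held 23.5 CPM. At E7.5 the lowest library held 50.8 CPM, the median 81.6 CPM and the highest, replicate 1, 212 CPM. The means were 7.52 ± 10.2 CPM (SD, n = 6) and 95.0 ± 46.5 CPM (SD, n = 11), again without overlap. The share of cells with a transcript was 10.7% (58 of 543) and 49.2% (211 of 429), and the thinned means were 1.40% and 16.9%. The 2 E6.75 libraries with most Pdgfra were also those with most Mesp1: replicate 2_13 held 28 and replicate 2_14 held 17 cells with Mesp1, of 50 at that stage, and the other libraries 0 to 5.

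Copies per cell differed between the stages as well as the share of cells. Among cells with the transcript, the median was 2 copies of Pdgfa at E6.75 and 2.5 at E7.5, and the highest values were 22 and 29. For Pdgfra the median was 1 copy at E6.75 and 4 at E7.5, and the highest values were 31 and 39. Of the Pdgfra cells, 14 of 58 at E6.75 and 94 of 211 at E7.5 held 5 or more copies. Cells near the depth limit held few of either: in E6.75 cells of 1000 to 2000 and of 2000 to 3000 transcripts (27 and 21 cells) there were 0, and in E7.5 cells of the same depths (64 and 23 cells) there were 6 and 1 of Pdgfa and 1 and 5 of Pdgfra.

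By detected genes, the cells were sorted into those with Sox2 and neither Mesp1 nor Foxa2 (271 at E6.75, 129 at E7.5), those with Mesp1 and no Foxa2 (29 and 125), those with Foxa2 and no Mesp1 (111 and 49), those with Mesp1 and Foxa2 (21 and 12) and those with none of the 3 (111 and 114). The last class was shallow, with a median of 8125 and 15641 transcripts, so detection of the marker genes themselves was limited there. Levels below are means over libraries with at least 3 cells of the class.

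In cells with Sox2 alone, Pdgfra was low and Pdgfa stood higher at E7.5 than at E6.75. Pdgfa stood at 17.7 ± 5.43 CPM (SD, n = 6; 8.47 to 23.9) at E6.75 and at 76.5 ± 42.2 CPM (SD, n = 10; 14.3 to 157, median 67.7) at E7.5. Pdgfra stood at 1.34 ± 0.914 CPM (SD, n = 6) and 17.6 ± 14.8 CPM (SD, n = 10; 0 to 47.5, median 15.3). For Pdgfa 9 of the 10 E7.5 libraries exceeded every E6.75 library, and E7.5 replicate 11, with 4 such cells, lay within the E6.75 range.

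Cells with Mesp1 carried the most Pdgfra at both stages. At E6.75 they occurred in 3 libraries, where Pdgfra was 0 CPM in replicate 2_9 (3 cells), 83.6 CPM in replicate 2_13 (15 cells) and 119 CPM in replicate 2_14 (11 cells). At E7.5 Pdgfra was 181 ± 59.5 CPM (SD, n = 11), with a lowest library of 89.3, a median of 161 and a highest of 300.2 CPM. All 11 of these libraries lay above the highest Sox2 library of that stage. A Pdgfra transcript was seen in 102 of 125 such cells (81.6%, exact binomial 95% interval 73.7 to 88.0%, which covers counting error alone).

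Pdgfa in the same Mesp1 cells stood above the Sox2 cells at E6.75 and mostly below them at E7.5. It was 74.8, 30.7 and 87.6 CPM in E6.75 replicates 2_9, 2_13 and 2_14 (mean 64.4 ± 29.9 CPM, SD, n = 3), all above the highest Sox2 library of that stage. At E7.5 it was 37.7 ± 28.2 CPM (SD, n = 11), with a lowest library of 0, a median of 27.7 and a highest of 83.5 CPM. The Mesp1 libraries of the stages overlapped. The ranges of E7.5 Mesp1 and Sox2 cells also overlapped for Pdgfa. Within libraries, Pdgfa was lower in the Mesp1 cells in 9 of the 10 with both classes, with means of 36.9 and 76.5 CPM there, and replicate 10 was the exception (60.5 and 58.9 CPM). With cells thinned to 2000 transcripts the Mesp1 means became 11.1 CPM at E6.75 and 68.2 CPM at E7.5. At that depth 1 transcript in a cell equals 500 CPM. A Pdgfa transcript remained in 3.45% of the 29 E6.75 and 9.6% of the 125 E7.5 Mesp1 cells. The thinned values therefore rest on few transcripts and do not settle the order of the stages in Mesp1 cells.

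In Foxa2 cells, Pdgfa was present with little Pdgfra. Pdgfa stood at 26.8 ± 18.0 CPM (SD, n = 6; 5.73 to 51.0) at E6.75 and at 92.8 ± 40.4 CPM (SD, n = 8; 50.7 to 164, median 81.0) at E7.5. Pdgfra stood at 2.93 ± 3.72 CPM (SD, n = 6; 0 to 9.99) and 13.6 ± 27.0 CPM (SD, n = 8; 0 to 79.7, median 4.83). The highest E7.5 value, of replicate 1, came from 22 transcripts in 3 of 8 cells, and the next library held 12 CPM. Without the cells like visceral endoderm and extraembryonic ectoderm the E6.75 means were 28.8 and 3.03 CPM.

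Cells with Mesp1 and Foxa2 together held both transcripts at E6.75. Pdgfa was 71.8 and 76.0 CPM and Pdgfra 49.2 and 16.5 CPM in replicates 2_13 and 2_14 (13 and 6 cells). At E7.5 the 12 such cells pooled to 51.9 CPM of Pdgfa and 154 CPM of Pdgfra. Cells with none of the 3 genes held 20.6 ± 9.45 CPM of Pdgfa and 0.692 ± 1.08 CPM of Pdgfra at E6.75 (SD, n = 6), and 45.5 ± 37.1 and 123 ± 120 CPM at E7.5 (SD, n = 9).

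**Figure D1:**
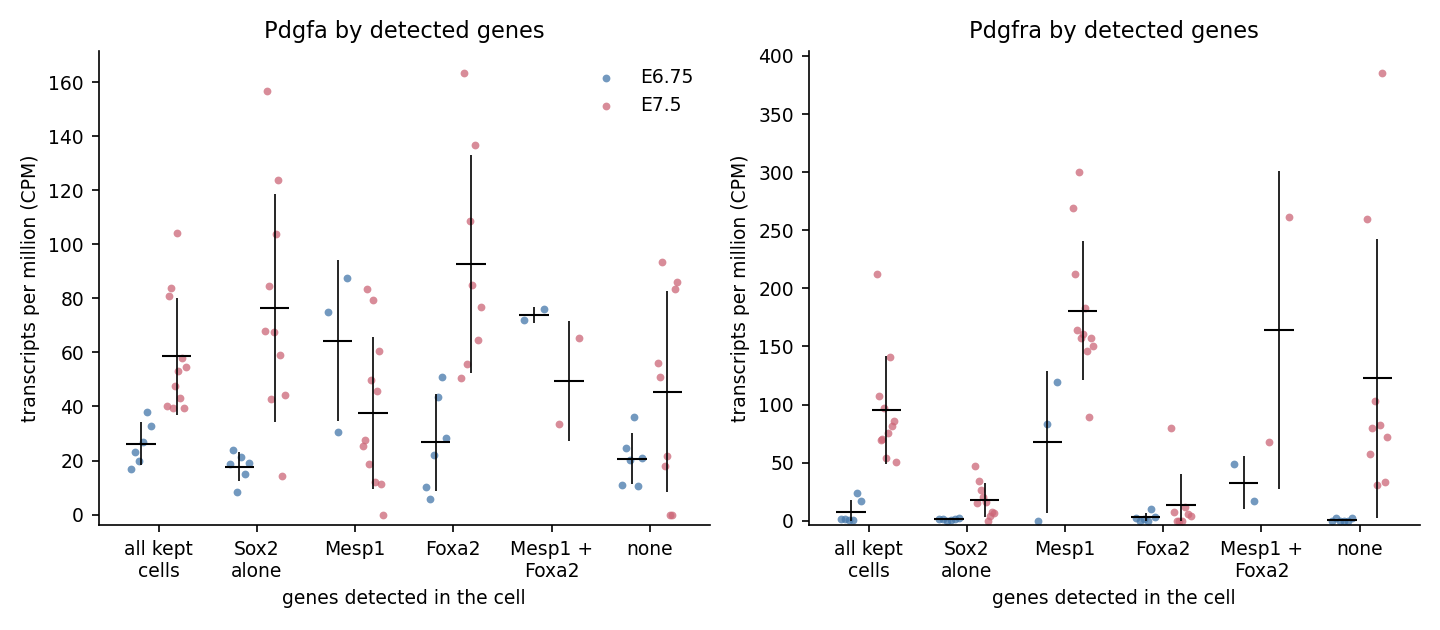
Pdgfa (left) and Pdgfra (right) in CPM (vertical axis) by the genes detected in a cell (horizontal axis). Points are libraries with at least 3 cells of the class, horizontal lines their mean and vertical lines the SD; E6.75 is blue and E7.5 red. Every E7.5 Mesp1 point for Pdgfra, 89.3 to 300.2 CPM, lies above all Sox2 points, while the Pdgfa points of those classes overlap.

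Within Mesp1 cells, the levels were also read by detection of Sox2 and of Hand1. At E7.5, Mesp1 cells with Sox2 held 112 ± 50.6 CPM of Pdgfra (SD, n = 6) and those without Sox2 held 221 ± 86.7 CPM (SD, n = 10), while Pdgfa was 60.0 ± 44.3 and 32.4 ± 21.7 CPM. The ranges of both genes overlapped between these cells; within the 6 libraries with both, Pdgfra was lower with Sox2 in 5 and Pdgfa higher in 4. Hand1 marks lateral and extraembryonic mesoderm. E7.5 Mesp1 cells with Hand1 held 53.4 ± 33.4 CPM of Pdgfa (SD, n = 8) and those without it 30.9 ± 50.4 CPM (SD, n = 10), with a median of 17.2 CPM for the latter, whose mean is raised by replicate 3, at 171 CPM in 3 cells. Pdgfra was 163 ± 53.0 and 198 ± 85.1 CPM in these cells, a difference within the SD of either. The 9 E6.75 Mesp1 cells with Hand1 pooled to 179 CPM of Pdgfra and 36.8 CPM of Pdgfa, and the 20 without Hand1 to 39.5 and 67.9 CPM. That last Pdgfa value rests on replicate 2_14, at 165 CPM in 5 cells, while replicate 2_13 held 34.2 CPM in 13 cells.

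Over all kept cells, joint detection at E6.75 lay above the product of the detection shares at full depth. At E6.75, 36 cells held both transcripts, 157 held Pdgfa without Pdgfra, 22 held Pdgfra without Pdgfa and 328 held neither. The product of the detection shares within each library would put both in 26.1 cells. By class, the cells with both and the product were 4 and 5.63 for Sox2 cells, 11 and 8.36 for Mesp1 cells, and 11 and 8.94 for Foxa2 cells. For cells with Mesp1 and Foxa2 they were 9 and 7.37, and for cells with none of the 3 genes 1 and 0.486. How far the excess over all cells follows the mix of cell types was not tested. Pdgfa was found in 62.1% of the Pdgfra cells and in 32.4% of cells without Pdgfra. Cells with both were the deepest, at a median of 72102 transcripts, against 27373 for cells with neither. Depth thus moved with joint detection, and its part was not tested.

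At E7.5 joint detection lay at the product of the shares at full depth and below it after thinning. There, 113 cells held both, 111 held Pdgfa without Pdgfra, 98 held Pdgfra without Pdgfa and 107 held neither, and the product within libraries was 113.6. Pdgfa was found in 53.6% of Pdgfra cells and in 50.9% of the others, and the median depth was 43135 for cells with both and 9249 for cells with neither. With cells thinned to 2000 transcripts, both were seen in 4 E7.5 cells, against a product of 8.15, and in 1 E6.75 cell, against 0.387. In thinned E7.5 cells Pdgfa was found in 5.26% of Pdgfra cells and in 11.9% of the others. These thinned counts are small, and whether the transcripts avoid each other by presence alone was not tested.

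At E7.5, Pdgfa was lowest in the cells with most Pdgfra copies. At that stage the pooled Pdgfa level was 81.1 CPM in cells with 0 Pdgfra transcripts, 74.0 CPM with 1, 88.4 CPM with 2 to 4, and 23.8 CPM in the 94 cells with 5 or more. Over libraries, cells without Pdgfra held 72.6 ± 30.3 CPM of Pdgfa and those with 5 or more copies 19.5 ± 13.8 CPM (SD, n = 11 each), lower in 11 of 11 libraries. Of the cells with 5 or more Pdgfra copies, 77.7% held Mesp1 and 21.3% Sox2. Cells with 5 or more copies of each gene numbered 3, while 47 had 5 or more Pdgfra copies and no Pdgfa. The other 47 of the 94 cells held Pdgfa (50%), near the 50.9% of cells with 0 Pdgfra transcripts. The classes thus differed in the level of Pdgfa and not in the share of cells holding it. Median depth was 43128 transcripts in cells with 5 or more copies and 21955 in cells with 0, and its part was not tested.

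At E6.75 the order was the opposite, although it rests on replicates 2_13 and 2_14, the libraries with most Pdgfa. Pooled Pdgfa was 22.1 CPM in cells with 0 Pdgfra transcripts, 42.2 CPM with 1, 60.5 CPM with 2 to 4 and 88.4 CPM in the 14 cells with 5 or more. Over libraries with at least 3 such cells the means were 22.0 ± 3.42 (SD, n = 6), 27.9 ± 28.5 (SD, n = 4), 60.8 ± 7.12 (SD, n = 2) and 87.3 ± 6.18 CPM (SD, n = 2), so cells with 1 copy did not differ from cells with 0 beyond the spread. Within replicate 2_13 the levels were 20.7, 52.7, 65.8 and 91.6 CPM in that order, and within replicate 2_14 they were 24.5, 52.2, 55.7 and 82.9 CPM. Replicates 1_10 and 1_11 held 6.55 and 0 CPM in 3 and 4 cells with 1 copy, below their cells with 0. Median depth moved with the copies, from 36493 transcripts in cells with 0 to 70782 in cells with 5 or more, and its part was not tested. All of the 14 cells with 5 or more copies held Mesp1, and 13 of them held Pdgfa. Cells with 5 or more copies of each numbered 6.

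**Figure D2:**
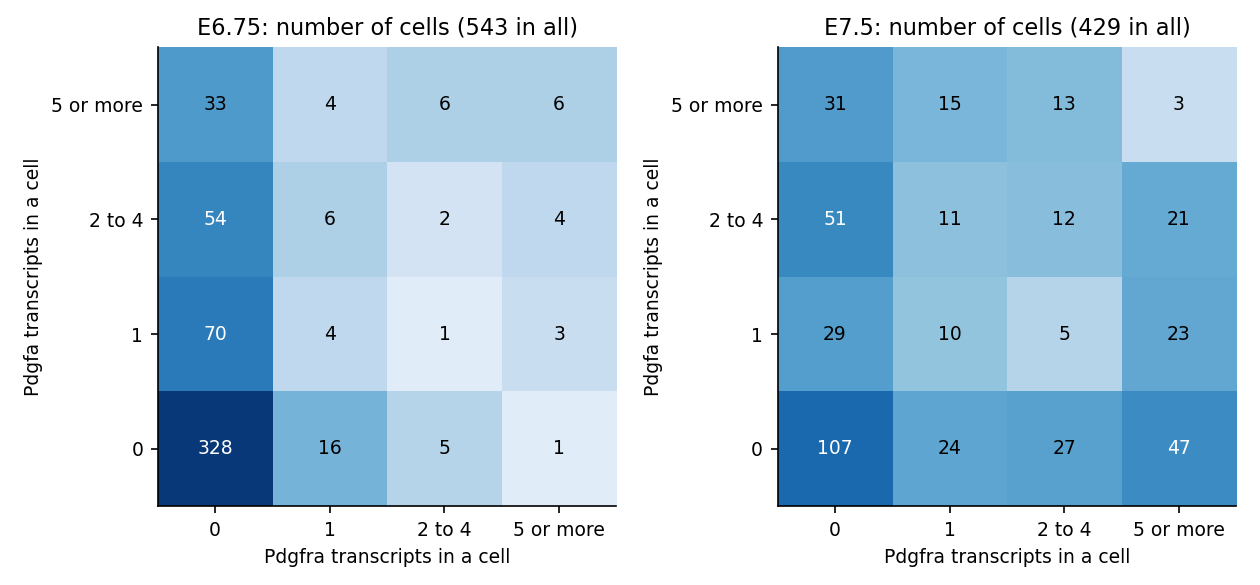
Number of cells by Pdgfra transcripts (horizontal axis) and Pdgfa transcripts (vertical axis) in a cell, at E6.75 (left, 543 cells) and E7.5 (right, 429 cells), with darker shading for more cells. At E7.5, 47 cells held 5 or more Pdgfra and 0 Pdgfa transcripts and 3 held 5 or more of each; at E6.75 these numbers were 1 and 6. Of the 94 E7.5 cells with 5 or more Pdgfra transcripts, 47 held Pdgfa.

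Clusters built without the 2 members among the clustering genes placed the overlap in a nascent streak population. Levels of the members by cluster are a description without a test. Pdgfra was still among the leading genes of E6.75 cluster 10 when genes were ranked afterwards. That cluster, primitive streak-like (46 cells, led by Mixl1, Mesp1 and T), pooled to 86.5 CPM of Pdgfa and 69.9 CPM of Pdgfra. Both were held by 24 of its cells, and the product of the shares within libraries was also 24. The other primitive streak-like cluster (48 cells, led by Foxa2 and Nanog) pooled to 46.4 CPM of Pdgfa with 2.85 CPM of Pdgfra. Epiblast-like clusters 3 and 8 held 9.50 and 3.64 CPM of Pdgfa and 1.30 and 0.661 CPM of Pdgfra. The extraembryonic ectoderm-like cells held 69.6 CPM of Pdgfa, and 0 of the 14 held Pdgfra, which allows a share of up to 21.4%. Visceral endoderm-like cells held 13.2 CPM of Pdgfa and 5.64 CPM of Pdgfra.

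At E7.5 the clusters ranged from much receptor with little ligand to the reverse. The nascent and paraxial mesoderm-like clusters 0 (54 cells) and 3 (24 cells) pooled to 294 and 276 CPM of Pdgfra with 12.1 and 19.2 CPM of Pdgfa, and 15 and 10 of their cells held both. All 9 libraries with cells to average in cluster 0 lay between 207 and 409 CPM for Pdgfra and between 0 and 24.9 CPM for Pdgfa. The definitive endoderm-like (15 cells) and node and notochord-like (14 cells) clusters were at the other end, with 143 and 99.7 CPM of Pdgfa and 7.15 and 11.4 CPM of Pdgfra. Anterior and neural ectoderm-like and epiblast-like cells held 60.5 and 62.9 CPM of Pdgfa with 13.5 and 6.50 CPM of Pdgfra.

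Between these ends lay E7.5 clusters with both transcripts. Extraembryonic and lateral mesoderm-like cells (53 cells) held 71.9 CPM of Pdgfa and 167 CPM of Pdgfra, and 33 of them held both. Caudal ectoderm-like cluster 2 (48 cells, led by Nkx1-2, Cdx1 and Wnt8a) held 96.8 and 66.0 CPM, with both in 21 cells. The shallow caudal ectoderm-like cluster 5 and the primitive streak-like cluster 6 held 61.6 and 61.4 CPM of Pdgfa and 106 and 97.6 CPM of Pdgfra. Blood and endothelial progenitor-like cells (16 cells) were low for both, at 21.6 and 9.95 CPM. Both transcripts were found together in 4 of the 30 cells of cluster 5 and in 4 of the 18 of cluster 6.

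**Figure D3:**
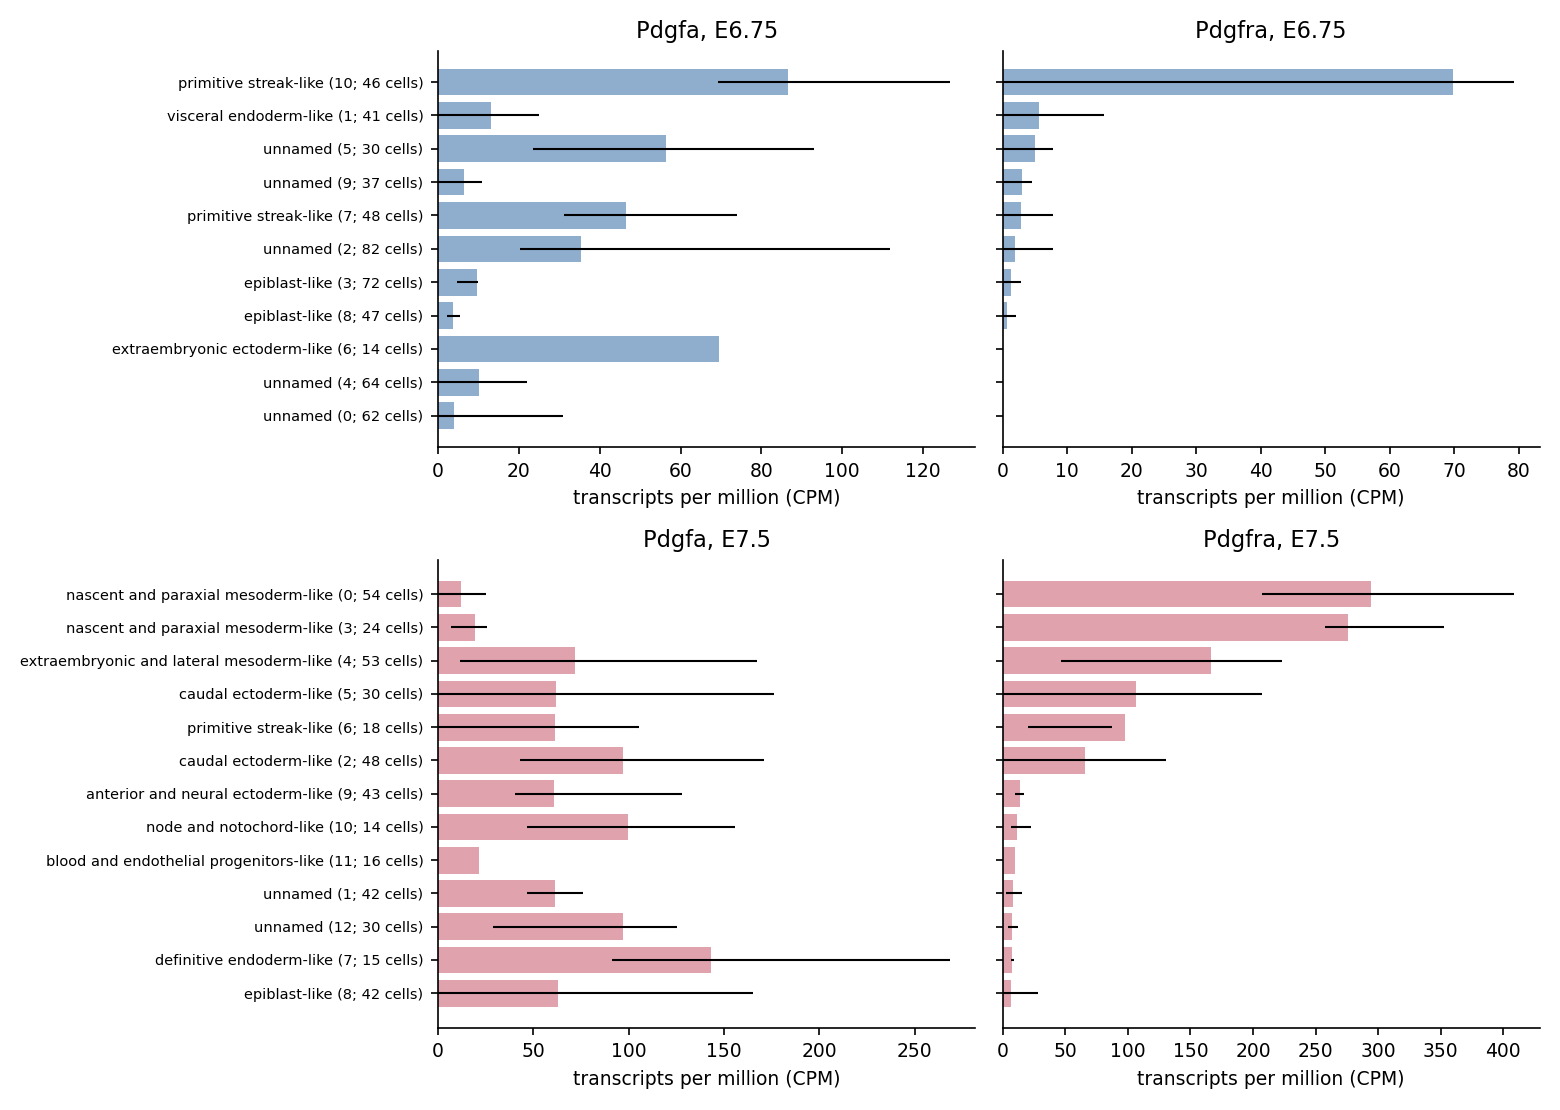
Pooled Pdgfa (left) and Pdgfra (right) in CPM (horizontal axes, each with its own scale) by cluster, E6.75 above and E7.5 below, ordered by Pdgfra. Cluster numbers and cell numbers are in parentheses; lines run from the lowest to the highest library with at least 3 cells of the cluster, where more than 1 had them. Pdgfra falls from 294 to 6.50 CPM down the E7.5 panel, while Pdgfa is lowest, 12.1 CPM, in the top cluster and highest, 143 CPM, in the definitive endoderm-like cluster.

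The T gene (brachyury), which marks the primitive streak, was not part of how the members were chosen. Cells with Sox2 and neither Mesp1 nor Foxa2 were therefore divided by T, and cells with and without T were compared within libraries. At E6.75, Pdgfa rose from 15.2 to 37.6 CPM in replicate 1_10, from 13.1 to 95.9 in 1_11, from 15.5 to 59.8 in 2_12, from 11.5 to 22.4 in 2_13, from 6.07 to 42.8 in 2_14 and from 5.58 to 17.6 in 2_9. It was higher with T in 6 of 6 libraries, and the values with T all exceeded 15.5 CPM, the highest without T. The means were 11.1 ± 4.37 and 46.0 ± 28.7 CPM (SD, n = 6), a log2 fold change of 2.05 with a standard error of 0.25 (edgeR quasi-likelihood test with library as a block, adjusted p = 1.69e-06). Of 7966 genes tested, 91 passed (1.14%), 66 of them higher (0.829%), and Pdgfa was 4th by size among those higher in every library.

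The T gate result for Pdgfa passed in every alternative fitted, with log2 fold changes of 1.78 to 2.22 and adjusted p (edgeR or DESeq2) of 8.05e-14 to 0.00938. Without the library block it was 1.94 (edgeR, adjusted p = 0.00938). Other cell type markers moved with T too. The summed primitive streak markers other than T stood at 218 ± 31.2 CPM without T and 551 ± 109 CPM with T (SD, n = 6), and the summed extraembryonic ectoderm markers at 152 ± 47.3 and 364 ± 202 CPM. The latter list shares Eomes with the streak list, all 8 of its genes were seen without T, and Esx1 was at 0 with T. With the clusters like visceral endoderm and extraembryonic ectoderm removed, an alternative chosen after the data were seen, the fold change was 2.19 (edgeR, adjusted p = 1.07e-06). Summed epiblast markers were 7444 ± 891 and 6131 ± 1149 CPM, and the median depth of a library's cells ran from 37792 to 63536 without T and from 34452 to 79828 with T. The part of these markers in the result, beyond the cells left out, was not tested.

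The other genes that rose with T at E6.75 included known streak and WNT pathway genes. Evx1, a streak homeobox gene, rose by 3.19 on the log2 scale (4.75 ± 4.31 to 44.1 ± 22.6 CPM), Wnt3 by 2.46 (5.80 ± 2.76 to 32.9 ± 15.0 CPM), and Axin2, a WNT feedback target, by 1.83 (12.2 ± 5.03 to 42.3 ± 15.8 CPM; SD, n = 6 for each). Fst, which encodes the activin antagonist follistatin, rose by 2.04, and Rreb1, a transcription factor acting downstream of Ras and MAP kinase, by 2.28. Cdc42ep4, Tcea3, Cdkn1a and Relt rose by 1.48 to 1.87. Utf1, an epiblast gene, fell by 0.74 (750 ± 156 to 452 ± 138 CPM), and Smagp, Marveld3, Enc1, Dnajc1, Slc7a3, Nxn, Stxbp6, Syt11 and Hopx fell by 0.62 to 1.53. Their adjusted p values by edgeR ran from 2.88e-09 to 0.0440.

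The adaptor, migration and epithelial lists gave no call with T at E6.75. With 1.14% of all genes called in that comparison, counts of 0 in lists this short are near the background. Of 17 tested adaptors and early signal carriers of the receptor, 0 passed by edgeR and 1 had an unadjusted p under 0.05, with a median log2 fold change of 0.03 beside 0.01 over all genes. Among the 5 mesoderm migration and 8 epithelial genes tested 0 passed by edgeR, 2 and 1 had an unadjusted p under 0.05, and Snai1, the repressor of Cdh1, was at 8.37 ± 4.19 and 17.4 ± 5.02 CPM (edgeR adjusted p = 0.237). Pdgfra was too low for the test in these cells, at 0 to 2.43 CPM without T and 0 to 3.29 CPM with T.

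At E7.5 the same division gave no call for Pdgfa, and Pdgfra was not tested. Pdgfa was 16.9 and 86.3 CPM without and with T in replicate 12, 88.9 and 78.5 in replicate 3, 28.9 and 76.4 in replicate 4 and 79.5 and 115 in replicate 7. It was higher with T in 3 of 4 libraries and the groups overlapped. The means were 53.5 ± 35.9 and 89.1 ± 17.9 CPM (SD, n = 4), a log2 fold change of 0.64 with a standard error of 0.31 (edgeR, adjusted p = 0.999). Without replicate 3 it was 1.13 (edgeR, adjusted p = 0.364) and without replicate 4 it was 0.42, which did not pass either. Of 5137 genes, 3 passed (0.0584%), 2 higher (0.0389%) and 1 lower (0.0195%) with T. Among them Meis2, a homeobox gene, rose by 1.99, and Dnmt3b, a DNA methyltransferase, fell by 0.61. Summed caudal ectoderm markers stood at 130 ± 47.7 CPM without T and 590 ± 596 CPM with T in these libraries, and their part was not tested. Pdgfra, below the filter, was at 11.3 and 0, 35.5 and 31.4, 9.63 and 64.9, and 4.19 and 21.1 CPM in the same order of libraries.

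The difference between the stages was tested itself. The T effect on Pdgfa was lower at E7.5 by 1.45 on the log2 scale with a standard error of 0.41 (edgeR interaction, p = 0.00139), and it did not pass after adjustment over 7470 genes (adjusted p = 0.464). Pdgfra's interaction was 1.37 with a standard error of 1.20 (edgeR, adjusted p = 0.979). Of these genes 1 passed (0.0134%), Id1, a BMP target, with a lower T effect at E7.5. A larger T effect on Pdgfa at E6.75 than at E7.5 was therefore not established.

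**Figure D4:**
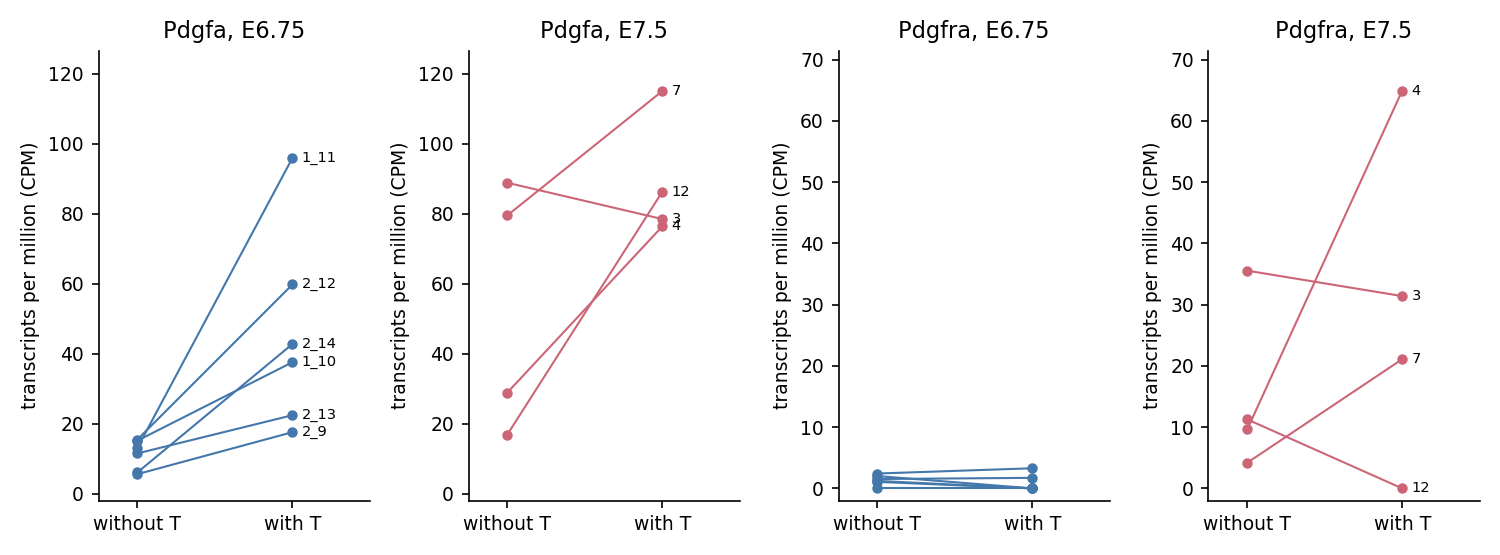
Pdgfa and Pdgfra in CPM (vertical axes; 1 scale per gene) in cells with Sox2 and neither Mesp1 nor Foxa2, without and with T (horizontal axes), with 1 line per library. All 6 E6.75 lines rise for Pdgfa, from 5.58 to 15.5 CPM without T to 17.6 to 95.9 CPM with T, and 3 of 4 do at E7.5, while Pdgfra stays at or below 3.29 CPM at E6.75.

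Cells holding Pdgfra without Pdgfa were next compared with cells holding Pdgfa without Pdgfra, to see which other genes separate them. Libraries with at least 3 cells of each kind entered, after the same extraembryonic clusters had been removed. At E6.75, 3 libraries qualified (3 to 8 Pdgfra cells and 21 to 32 Pdgfa cells each). Of 7186 genes, 1 passed (0.0139%): Fst was lower in Pdgfra cells, at 0, 22.9 and 71.8 CPM against 163, 104 and 242 CPM in replicates 1_11, 2_13 and 2_14 (log2 −2.21, SE 0.32, edgeR adjusted p = 0.00201). At an unadjusted p under 0.05 there were 305 genes by edgeR and 54 by DESeq2, which called 0. The Fst call was lost with DESeq2, without the library block and without replicate 2_13, with the same sign in each. Summed primitive streak markers were 746 ± 212 CPM in Pdgfa cells and 588 ± 474 CPM in Pdgfra cells (SD, n = 3). Fn1 (fibronectin) and Cdh11 (a mesenchymal cadherin) had log2 fold changes of 1.43 and 2.14 that did not pass (edgeR adjusted p = 0.282 and 0.210). Of the 5 mesoderm migration and 8 epithelial genes tested at E6.75, 0 passed, and these 2 alone had an unadjusted p under 0.05.

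At E7.5, 9 libraries qualified, and mesoderm genes were among those higher in Pdgfra cells. Of 4630 genes, 293 passed (6.33%), 147 higher (3.17%) and 146 lower (3.15%) in Pdgfra cells. The median depth of a library's cells ran from 22172 to 60933 transcripts for Pdgfa cells and from 7152 to 43703 for Pdgfra cells. Pdgfra cells were the shallower in replicates 3, 6, 8, 10 and 12 and the deeper in replicates 1, 2, 4 and 11. The part of depth was not tested. Lefty2, a Nodal antagonist of nascent mesoderm, was 0 to 32.0 CPM in Pdgfa cells and 55.1 to 1065 CPM in Pdgfra cells (log2 5.26, SE 0.23, edgeR adjusted p = 4.60e-13). Fn1 stood at 31.3 to 440 CPM against 641 to 1703 CPM, a rise of 2.95 (SE 0.24, edgeR adjusted p = 1.14e-08). Foxc1 and Dll3, genes of paraxial mesoderm, rose by 4.31 and 4.17, Rasgrp3, a Ras exchange factor, by 3.94, Crabp1, a retinoic acid binding protein, by 3.13, and Wnt5a by 2.73. Gm7676, Ifitm1 and Phlda2 rose by 2.67 to 2.96.

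Genes of epithelial junctions and adhesion were among those lower in E7.5 Pdgfra cells. Cldn6, a claudin, was 108 to 574 CPM in Pdgfa cells and 6.13 to 153 CPM in Pdgfra cells, lower in 9 of 9 libraries (log2 −2.88, SE 0.27, edgeR adjusted p = 7.73e-08). Epcam, an epithelial adhesion molecule, was 59.4 to 298 CPM against 11.7 to 80.9 CPM (log2 −1.90, SE 0.23, edgeR adjusted p = 5.04e-06), lower in 9 of 9 libraries though the ranges overlapped. Trh fell by 3.26, Eras by 2.54, Pim2 by 2.08, Cldn7 by 2.05, Spint2 by 1.99, Slc2a3 by 1.86, Tpd52 by 1.85 and L1td1 by 1.80. The 10 genes named as higher and the 10 named as lower had the same sign in 9 of 9 libraries.

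The lists, chosen with earlier results of these data known, were read in the same fit. Fn1, Cldn6, Cldn7 and Epcam are also among the genes named above, so the lists are not separate support for the division. Of 6 tested mesoderm migration genes 5 rose in Pdgfra cells: Fn1, Cdh11 (2.44), Snai1 (1.95), Cdh2 (N-cadherin, 1.45) and Vim (vimentin, 1.04), with Itgb1 not passing (0.16), and the list's median was 1.70 beside 0.00 over all genes. Of 6 tested epithelial genes 5 fell: Cldn6, Cldn7, Epcam, Cdh1 (E-cadherin, −1.55) and Krt18 (−1.16), with Krt8 not passing (−0.75), and the median was −1.73. Cdh1 stood at 311 ± 64.1 CPM in Pdgfa cells and 111 ± 57.6 CPM in Pdgfra cells (SD, n = 9). Marker sums moved with the gates: nascent and paraxial mesoderm markers stood at 44.8 ± 16.0 and 1098 ± 415 CPM, epiblast markers at 3996 ± 1023 and 1575 ± 905 CPM, and definitive endoderm markers at 438 ± 330 and 94.8 ± 39.4 CPM in Pdgfa and Pdgfra cells. How far these differences follow cell type was not tested.

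Of 11 adaptors and early carriers of the PDGF signal tested between E7.5 receptor and ligand cells, 0 passed by edgeR and 1 had an unadjusted p under 0.05. With 6.33% of all genes called, a count of 0 among 11 is near the background. Their log2 fold changes included those of Grb2 (0.24), Ptpn11 (0.13) and Pik3ca (0.30). Nrp1, a co-receptor for VEGF and PDGF family ligands, was 33.7 ± 35.9 and 81.9 ± 75.8 CPM and rose by 1.42 (7 of 9 libraries, edgeR adjusted p = 0.0477), a call lost in 11 of its alternatives. Without replicate 2 its fold change was 0.83 (edgeR, adjusted p = 0.334). Nrp2 (0.82) and Sparc (0.27), a matrix protein that binds PDGF, did not pass (edgeR adjusted p = 0.0623 and 0.335).

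The gate difference itself changed between stages for 32 of 6578 genes (0.486%), 10 towards Pdgfra cells at E7.5 (0.152%) and 22 away from them (0.334%). Of 7 tested epithelial genes 4 moved away (Epcam, Cldn6, Cldn7 and Esrp1; list median −1.78 beside −0.01 over all genes), and of 7 mesoderm migration genes 0 passed by edgeR (2 at an unadjusted p under 0.05, median 0.45). Cldn6 shows the pattern: at E6.75 it was 224 ± 25.5 CPM in Pdgfa cells and 206 ± 38.7 CPM in Pdgfra cells (SD, n = 3), and at E7.5 287 ± 145 and 42.5 ± 46.4 CPM (SD, n = 9; interaction −2.77, SE 0.40, edgeR adjusted p = 0.000442). At E7.5 the Pdgfra cells thus had less Cldn6 than the Pdgfa cells, and at E6.75 the groups overlapped. The Pdgfra cells of the stages were not alike in receptor copies. Over all kept cells, 22 held Pdgfra without Pdgfa at E6.75, of which 16 held 1 copy and 1 held 5 or more. At E7.5 there were 98, of which 24 held 1 copy and 47 held 5 or more. The part of this difference in the changes between stages was not tested.

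**Figure D5:**
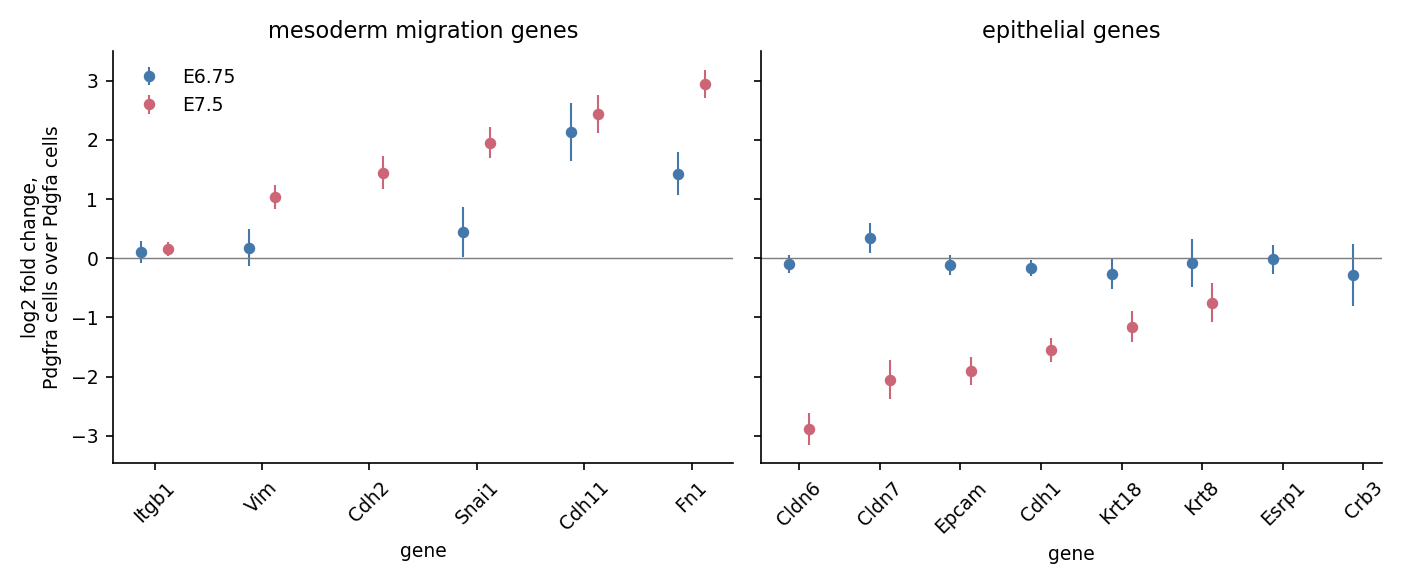
Log2 fold change of cells with Pdgfra and no Pdgfa over cells with Pdgfa and no Pdgfra (vertical axis) for the mesoderm migration (left) and epithelial (right) genes tested (horizontal axis), at E6.75 (blue) and E7.5 (red); bars are standard errors and a missing point was below the filter. At E7.5 the epithelial points run from −2.88 to −0.75 and at E6.75 from −0.28 to 0.34.

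The other PDGF genes were sparse. Pdgfb, Pdgfc and Pdgfd, the other ligands, and Pdgfrb and Pdgfrl, the beta receptor and a receptor-like gene, had 10 to 77 transcripts per stage in all kept cells, and means of 0.355 to 3.72 CPM. All were below the filter of the stage test. Pdgfrb, at 3.72 ± 2.52 CPM at E7.5 (SD, n = 11), was in 50 of 429 cells, with 28 of its 65 transcripts in the extraembryonic and lateral mesoderm-like cluster. Pdgfb had 22 of its 28 E7.5 transcripts in the 16 blood and endothelial progenitor-like cells.

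The pathway lists were also read between stages. Of all genes tested 20% were higher and 18.8% lower at E7.5, with a median log2 fold change of 0.03. Of 6 related receptors and ligands 4 rose: Kdr, a VEGF receptor, by 3.89 (2.59 ± 3.84 to 47.8 ± 35.3 CPM), Kitl by 2.25, Vegfa by 1.32 and Flt1 by 0.79, while Kit was at 11.9 ± 2.28 and 15.7 ± 7.38 CPM and did not pass (edgeR adjusted p = 0.232). Of 7 ligand cleavage and retention genes 3 rose, the convertase Pcsk5 by 4.17 and the co-receptors Nrp1 by 4.36 and Nrp2 by 2.14, and 1 fell, the convertase Pcsk6 by 1.24. Of 20 adaptors and signal carriers 3 rose (Pik3r1, Plcg1, Nck1) and 4 fell (Shc1, Sos1 and Src among them), none by more than 0.78, a share of calls near the background.

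Genes that dampen the receptor's signal mostly fell. Of 10 tested, 6 fell, among them Spry1 by 2.01 (53.2 ± 15.1 to 13.4 ± 6.32 CPM), Dusp6 by 1.30, Spry4 by 1.28, Cbl by 0.53 and Ptpn2 by 0.49. Spred1 rose by 1.09. Spry1, Spry4 and Dusp6 are also feedback targets of FGF signalling. Mesoderm migration genes rose in 6 of 7, from 1.12 for Snai1 to 3.23 for Zeb2, and epithelial genes fell in 6 of 8, with Krt8 rising by 1.58. These stage values come from edgeR fits over 6 and 11 libraries, in which stage, collection and protocol cannot be told apart. Fewer cells of a type and less RNA per cell cannot be told apart in sums over a library either.

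The genes whose pattern was most like each member's were found over 50 sums of library by class (20 at E6.75 and 30 at E7.5), among 6480 genes, by Pearson correlation of log2(CPM + 10). Sums of 1 library share its depth and preparation, so the coefficients are a description. Nearest to Pdgfra were Hmga2 (0.92), Ifitm1 (0.92), Fn1 (0.92), Phlda2 (0.90) and Rasgrp3 (0.89), with coefficients of 0.75 to 0.96 within E6.75 and 0.81 to 0.90 within E7.5, and farthest were Camsap3 (−0.90), Epcam (−0.89) and Cldn7 (−0.88). Nearest to Pdgfa were Sp8 (0.70), Btg1 (0.65), Cdk2 (0.64), Galk1 (0.61) and Syngr2 (0.60), with coefficients of 0.16 (Syngr2) to 0.59 within E6.75 and 0.54 to 0.72 within E7.5, so that the likeness was weaker at E6.75 for some. The farthest were Gng2, Srrt and Mtfr1l (−0.60 each), with Gng2 at −0.17 within E6.75. Pdgfa and Pdgfra themselves correlated at 0.08.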

How the data were processed

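RNA of single cells was read in 6 E6.75 and 12 E7.5 libraries. The authors deposited expected counts per gene and cell, UMI counts corrected for tags used more than once. Per the submitters' processing notes bcl2fastq 2.17.1.14 and BWA 0.6.2-r126 were used; genome build, annotation and counter are not given in the sources used here. Values were rounded to whole transcripts. Cells were kept from 2000 nuclear transcripts, ERCC spike-ins and mitochondrial genes were left out, and counts were summed per library and gate. Python 3.11.15 and scanpy 1.11.5 were used for clusters, and no doublet caller was run. Tests used edgeR 4.0.16 in R 4.3.3 (quasi-likelihood F test, TMM, filterByExpr, Benjamini-Hochberg over all genes, threshold 0.05), with DESeq2 1.42.0 as an alternative (192 calls for the E7.5 Pdgfra against Pdgfa cells). Gates are cells of the same library, so the library was a block. Named genes are the 10 largest each way among genes passing with the same sign in every library, plus list members; for changes between stages the sign was not required. Some genes that this rule or the lists would name are counted but not reported here by name. The code was tested on simulated data. Members and lists were chosen with earlier results of these data known. The exact 95% interval of a share covers counting error alone.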

Additional observations from a re-analysis of the deposited data

Results flagged for a closer look

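Of 18 groups of libraries examined for a library far from the others, 2 had one, where chance gives about 1 in 20. Pdgfra in E6.75 Foxa2 cells was 9.99 CPM in replicate 2_13, with the next library at 3.45 CPM. Pdgfra in E7.5 Foxa2 cells was 79.7 CPM in replicate 1, with the next at 12 CPM.

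The difference between cells with Pdgfra and no Pdgfa and cells with Pdgfa and no Pdgfra was itself different at the 2 stages for the 20 genes that follow, by edgeR's interaction test. Most of these Pdgfra cells held 1 receptor copy at E6.75 and more than 1 at E7.5, and the part of this was not tested. The difference, Pdgfra cells over Pdgfa cells, was more positive at E7.5 than at E6.75 for the Nodal antagonist Lefty2 (5.02 on the log2 scale, adjusted p = 8.89e-08), Crabp1 (3.86, adjusted p = 0.00267), Dusp9 (2.62, adjusted p = 0.00179), Prtg (1.98, adjusted p = 0.00313) and the WNT effector Lef1 (1.92, adjusted p = 0.0202). The same held for Jun (1.89), Gas1 (1.77), Hmga2 (1.74), Epb41l3 (1.73) and Tpm1 (1.04), with adjusted p by edgeR of 0.000217 to 0.0480. Jun itself was lower at E7.5 in both kinds of cell. It went from 60.2 to 34.8 CPM in Pdgfra cells and from 102 to 14.5 CPM in Pdgfa cells.

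The same difference was more negative at E7.5 than at E6.75 for Trh (−3.07, adjusted p = 0.000125), the claudins Cldn6 (−2.77, adjusted p = 0.000442) and Cldn7 (−2.39, adjusted p = 0.0188), and Grb7 (−2.59, adjusted p = 0.00179), again by edgeR. Eras (−2.58), Sox3 (−2.51), Lima1 (−2.47), Camsap3 (−2.40), Slc7a3 (−2.07) and Pdpn (−2.02) had adjusted p by edgeR of 0.00817 to 0.0413. For the T division of Sox2 cells, Id1, a BMP target, differed between stages by −2.08 (edgeR, adjusted p = 0.0490).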

How the results depend on the processing

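The count of genes called between Pdgfra and Pdgfa cells depended on the setting at E6.75, where 1 gene was called. It was 0 with DESeq2, 39 without a filter on low counts, 21 with no cells left out, 10 with at least 5 cells per gate, 0 with no replicate block, 10 with E6.75 libraries of prefix 2 alone, and 0 to 24 on leaving out 1 library (0 without 2_13, 10 without 1_11, 24 without 2_14). At E7.5, with 293 called, it was 1.9e+02 with DESeq2, 719 without the filter, 55 with gates from thinned cells, 193 with at least 2 transcripts in a gate, 211 with no replicate block and 239 to 308 on leaving out 1 library. For the change between stages, with 32 called, it was 18 with DESeq2, 112 without the filter, 18 with at least 5 cells, 12 with no replicate block, 20 with prefix 2 alone, and 12 (without 2_13) to 48 on leaving out 1 library, with 20 without 1_11. For the T division at E6.75, with 91 called, it was 41 with DESeq2, 18 with no replicate block and 54 (without 2_14) to 78 on leaving out 1 library. At E7.5, with 3 called, it was 0 with DESeq2, 39 without the filter, 0 with no replicate block, and 0 (without 7), 1 (without 4), 8 (without 3) or 26 (without 12). The T change between stages, with 1 called, gave 0 with DESeq2, 17 without the filter, 0 with no replicate block and 0 to 5 on leaving out 1 library. The cause of these differences was not tested.

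With cells thinned to 2000 transcripts the Pdgfa level in Mesp1 cells moved to 11.1 CPM at E6.75 and 68.2 CPM at E7.5. Both values rest on few transcripts. The Pdgfra level in E6.75 Sox2 cells moved to 3.19 CPM as a mean of CPM per cell. No called value changed sign under any setting run; 219 of the values for single genes lost their call under a setting and 1432 did not. Gates from thinned cells (E6.75 and the change between stages) and gates of at least 2 transcripts (E6.75) could not be fitted. The T division without the extraembryonic clusters, and its change between stages, were chosen after seeing the data. Pdgfra at E6.75 rested on 232 transcripts, with 129 and 89 of them in replicates 2_13 and 2_14, which limits every Pdgfra value at that stage.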

Other observations

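Kdr, Kit and the sparse PDGF genes had patterns of their own over the E7.5 clusters. Kdr, a receptor of blood vessel progenitors, pooled to 478 CPM in blood and endothelial progenitor-like cells, 102 CPM in extraembryonic and lateral mesoderm-like cells and 93.4 CPM in nascent and paraxial mesoderm-like cluster 0. Kit pooled to 34.3 CPM in definitive endoderm-like cells, of which 13 of 15 held it. Pdgfb, the B-chain ligand, pooled to 36.5 CPM in blood and endothelial progenitor-like cells, where 10 of 16 cells held it, and Pdgfrb to 15.2 CPM in extraembryonic and lateral mesoderm-like cells, where 16 of 53 held it. These values are pooled over libraries and have no test.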
